A study of Mus musculus with 8 samples.

Results

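Ribosome footprints of 34 genes of cell adhesion and axon guidance were examined in brains of the Taiwanese mouse model of severe spinal muscular atrophy (SMA). The members were a list of gene symbols, drawn up with earlier results of these data known, and they stood among 21874 genes with a protein-coding transcript in the deposited table. For each gene the coding transcript with the most reads over the 8 libraries was used, after scaling each library to its total. The list fell into 6 roles, which were immunoglobulin-type adhesion molecules, cadherin and synaptic adhesion molecules, guidance ligands, receptors of Slits and netrins, plexins with neuropilins, and Eph receptors with ephrins. All animals were FVB mice at postnatal day 5 that carried SMN2, the human copy gene, as a transgene on 1 allele, the healthy littermates included. Healthy Smn+/-; SMN2tg/0 brains gave 3 SMN immunoprecipitates and 1 IgG immunoprecipitate, made by RNase I digestion of a lysate, pelleting of the ribosomes and pull-down with an antibody to the survival motor neuron protein SMN or with IgG. Early symptomatic brains, Smn-/- with SMN2tg/0, gave 2 RiboLace libraries and 2 polysome libraries. RiboLace captures ribosomes taken to be translating, and polysomes were separated in sucrose gradients. The labels name the libraries of a group as biological replicates. RiboLace and polysome libraries of healthy brains were not analysed here.

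Adhesion molecules of the immunoglobulin class hold neurites together and fasten axons to each other and to glia. Guidance works through secreted or membrane-bound ligands, the netrins, Slits, semaphorins and ephrins, whose receptors on the growth cone (Dcc and Unc5, Robo, plexins with neuropilins, and Eph receptors) turn contact with a ligand into attraction, repulsion or a stop. In the neonatal brain the same proteins act while tracts are completed and synapses are laid down. Most are large secreted or membrane proteins, made by ribosomes at the endoplasmic reticulum. SMN is best known for assembling the ribonucleoproteins of the spliceosome, and the immunoprecipitates address its association with ribosomes.

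Depth differed widely. Over 1 transcript per coding gene, the immunoprecipitates held 133295 to 237760 reads, the RiboLace libraries 47846 and 39375, and the polysome libraries 1661834 and 2295393. The 34 members together took 0.922% to 1.15% of these reads in the immunoprecipitates, 0.796% and 0.876% in RiboLace, and 0.848% in each polysome library. A gene with 3 reads stood at 62.7 and 76.2 CPM (counts scaled to 1000000 reads) in the RiboLace libraries but at 1.81 and 1.31 CPM in the polysome libraries, so single reads moved the RiboLace values. Each member had a read in every library except Ntn1 in RiboLace replicate 2, where 0 reads allow up to 76.2 CPM from counting error alone. Smn1 itself had 22, 13 and 34 reads in the SMN immunoprecipitates, 6 in IgG, 2 and 0 in RiboLace and 51 and 77 in polysomes. Its level was 105 to 174 CPM in the SMN immunoprecipitates, 30.8 CPM in IgG and 27.6 and 29.7 CPM in polysomes. Where the Smn1 reads of the Smn-/- brains come from was not tested. The summed level of 9 neuronal markers, each present in every group and Tubb3 and Stmn2 called higher over polysomes in each of the other groups, was 8664 to 9171 CPM in the SMN immunoprecipitates, 8690 CPM in IgG, 9272 to 10027 CPM in RiboLace and 5061 to 5495 CPM in polysomes. The list moved both ways, with 5 positive and 4 negative in SMN over polysomes (median log2 fold change 0.088) and 4 positive and 5 negative in IgG (median -0.35). The summed level of 8 microglial markers was 268 to 533 CPM in the SMN immunoprecipitates, with Aif1 at 0, 236 CPM in IgG, 305 to 421 CPM in RiboLace, with Aif1 and Tmem119 at 0, and 491 to 503 CPM in polysomes. The astrocyte and radial glia markers summed to 2222 to 2858 CPM, 2082 CPM, 2826 to 3397 CPM and 2246 to 2331 CPM in the same order. Markers of the oligodendrocyte lineage summed to 727 to 1324 CPM, 590 CPM, 769 to 1017 CPM and 808 to 976 CPM, with Mog at 0 in IgG and RiboLace. Markers of endothelium and blood summed to 1338 to 1421 CPM, 1277 CPM, 2685 to 3198 CPM and 1110.1 to 1385 CPM, with Pecam1 and Alas2 at 0 in RiboLace. There the globins Hbb-bt and Hba-a1 were called higher (log2 fold changes over polysomes 1.33 and 1.26), while the median of the 7 markers tested was -0.64. Their part in the differences below was not tested. In footprints of whole brain, fewer cells of a type and fewer footprints per cell cannot be told apart.

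Levels of the members differed widely within each role. CPM below are scaled by trimmed mean of M values (TMM) over the 8 libraries, and for the order between genes they were divided by the coding length in kilobases. In polysomes the highest level per kilobase belonged to Efnb3, a transmembrane ephrin that is ligand to Eph receptors, at 337 ± 30.5 CPM per kilobase (SD, n = 2). It was followed by Chl1, a close homolog of L1, at 299.7 ± 9.31, and by Ncam1, the neural cell adhesion molecule, at 274 ± 2.24. The lowest was Slit2, a secreted repellent of commissural axons, at 3.84 ± 0.062 CPM per kilobase. Of 33 pairs of neighbours in this order, 19 had polysome values that overlapped, so the middle of the order was not resolved. Ranked in the same way, Ncam1 came first in the SMN immunoprecipitate, in IgG and in RiboLace, where Efnb3 came in place 4, 5 and 2. Slit1, the other Slit on the list, moved from place 30 in polysomes to place 16 in the SMN immunoprecipitate.

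**Figure D1:**
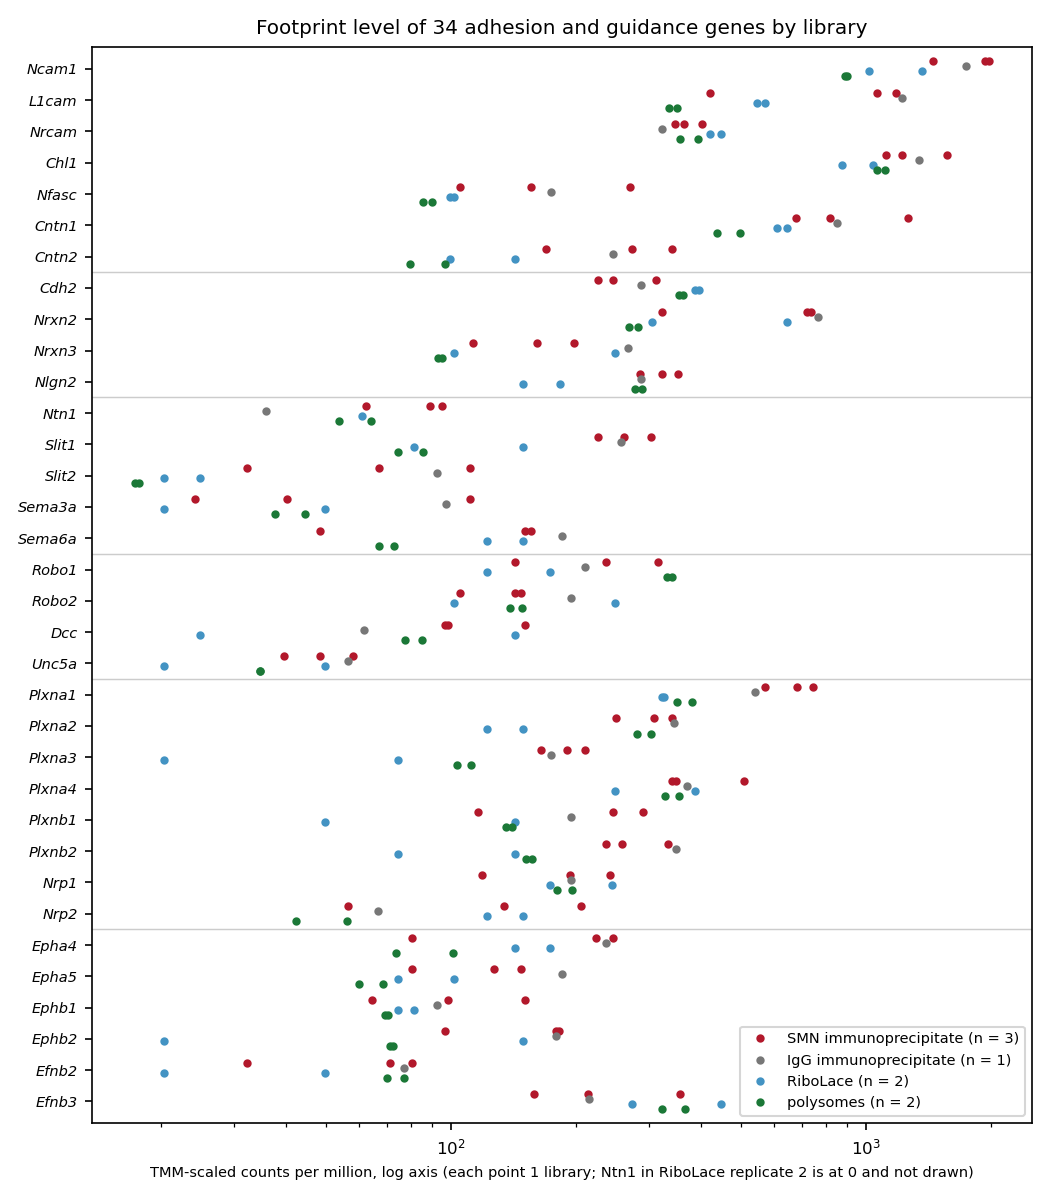
Footprint level of each of the 34 members in each of the 8 libraries, as TMM-scaled CPM on a log axis, with 1 point per library and lines between the 6 roles. Polysome points lie close together, and the immunoprecipitates lie to their right for Ncam1, L1cam, Slit1, Slit2 and most other adhesion genes but not for Cdh2, Robo1 or Nrcam.

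The SMN immunoprecipitate was first compared with IgG, which asks which messages lie on ribosomes bound by SMN beyond the unspecific pull-down. No member passed the test. Of 33 tested, 0 were called higher and 0 lower (quasi-likelihood test of edgeR, adjusted p under 0.05 by Benjamini-Hochberg over all genes), where 0.0% of 5517 genes were called higher and 0.0181% lower. Unc5a, a repulsive netrin receptor, had too few reads to be tested. At an unadjusted p under 0.05 the counts were also 0 and 0, and DESeq2 and limma-voom called 0 in each direction. The median log2 fold change of the members was 0.0029, against 0.032 over all genes, with 17 positive and 16 negative. Standard errors of the members ran from 0.45 to 0.71 on the log2 scale, so changes of 2-fold could not be resolved here. The IgG side rested on 1 library, which was taken to vary as the SMN libraries did.

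Among the members farthest from no change, Ntn1, the secreted netrin that attracts or repels axons by way of Dcc and Unc5, had 95.04, 88.8 and 62.5 CPM in the SMN replicates and 35.9 CPM in IgG. All 3 SMN values lay above IgG, but they came from 11 to 14 reads against 7, and the log2 fold change of 1.13 (SE 0.71) did not pass (edgeR, adjusted p = 0.9995). Dcc, its receptor, had 150.5, 96.9 and 98.2 CPM against 61.5 CPM (log2 fold change 0.87, SE 0.65, adjusted p = 0.9995). Nrp2, a semaphorin co-receptor, had 206, 56.5 and 134 CPM against 66.7 CPM in IgG, with SMN replicate 2 below the control. On the other side Sema3a, a secreted repellent of growth cones, had 111, 24.2 and 40.2 CPM against 97.4 CPM. Nrxn3, a presynaptic neurexin, had 198, 113 and 161 CPM against 267 CPM, with all 3 SMN replicates lower (log2 fold change -0.76, SE 0.50, adjusted p = 0.9995). In all, 4 members lay above IgG in every SMN library (Ntn1, Dcc, Nrcam and Plxna1) and 8 below, against 23.2% and 22.3% of all genes tested.

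**Figure D2:**
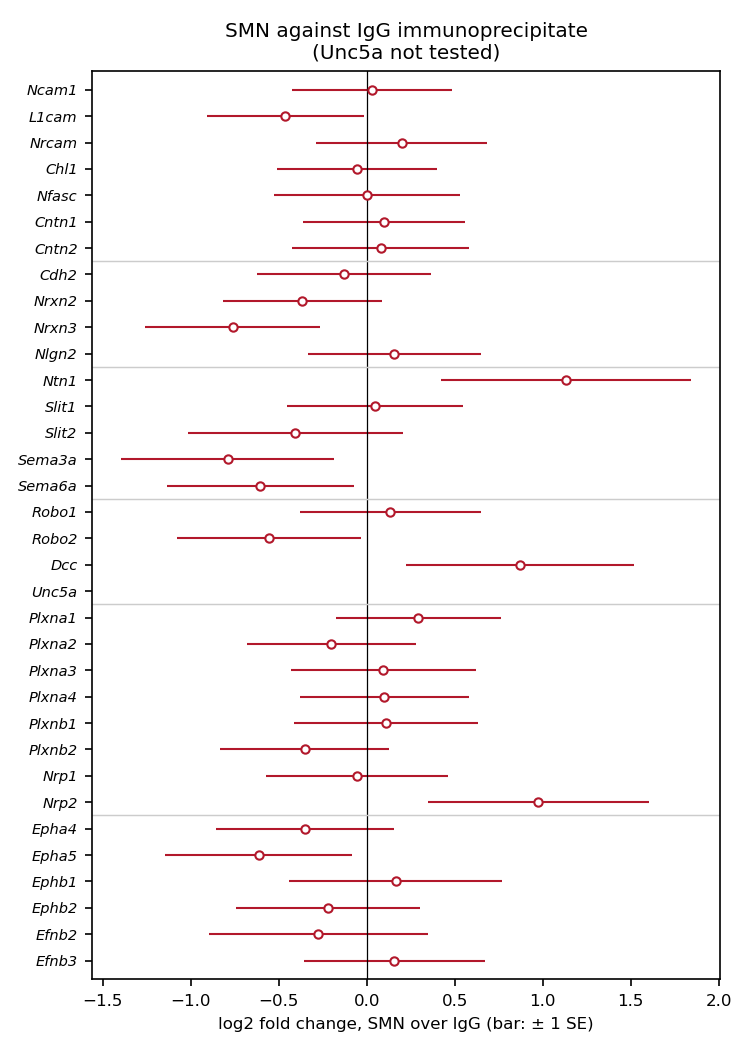
Log2 fold change of the SMN immunoprecipitate over IgG for the 33 members tested, with bars of 1 SE from the edgeR fit. The points lie on both sides of 0, between -0.79 for Sema3a and 1.13 for Ntn1, and all are open because none was called.

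In SMA brains RiboLace was compared with polysomes, which asks which messages gain or lose share on ribosomes captured as active. The capture and the protocol cannot be told apart. Of the 34 members, 0 were called higher and 2 lower, where 1.31% of 10807 genes were called higher and 0.925% lower. The 2 were the Slit receptor Robo1 and the semaphorin receptor Plxna2. Their median log2 fold change was -0.02 over the 34 members, against -0.29 over all genes tested. At an unadjusted p under 0.05, 3 members were higher and 4 lower, where 4.47% and 10.1% of all genes were, so the lower count was near that of all genes.

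Robo1, the receptor through which Slits repel axons after midline crossing, had 122 and 174 CPM in RiboLace, from 6 and 7 reads, and 340.3 and 332 CPM in polysomes. Both RiboLace values lay below both polysome values, and the log2 fold change was -1.38 (SE 0.36, edgeR adjusted p = 0.0125), or 2.60-fold lower. Its relative Robo2 had 102 and 248 CPM in RiboLace against 148 and 139 CPM, on both sides of the polysome values (log2 fold change 0.062, SE 0.38). The Robo genes were not tested against each other. Plxna2, a class A plexin and semaphorin receptor, had 122 and 149 CPM, from 6 reads in each library, against 302 and 281 CPM in polysomes, without overlap (log2 fold change -1.29, SE 0.38, edgeR adjusted p = 0.0364). Neither call held with 1 RiboLace library left out. Without RiboLace replicates 1 and 2 in turn, the log2 fold changes of Robo1 were -1.22 and -1.65, and those of Plxna2 -1.23 and -1.45. With DESeq2 and with limma-voom 0 members were called lower. Of all genes 6 and 0 were called lower there, in place of 100.

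Within the plexins and neuropilins 6 of 8 members had a negative log2 fold change in RiboLace, with a median of -0.48, where 63.2% of all genes tested were negative. Plxna3, encoded on the X chromosome like L1cam, had 20.3 and 74.4 CPM in RiboLace, from 1 and 3 reads, against 112 and 104 CPM in polysomes, and did not pass (log2 fold change -1.43, SE 0.60, edgeR adjusted p = 0.217). Plxna1 had 325 and 322 CPM against 380.3 and 350.4 CPM, also below both polysome values (log2 fold change -0.34, SE 0.28). Nrp2 stood at the other end, with 122 and 149 CPM in RiboLace, from 6 reads in each, against 42.2 and 56.2 CPM in polysomes, and with a log2 fold change of 1.25 (SE 0.51) it missed the test (edgeR, adjusted p = 0.193). Nrp2 was called higher where all coding transcripts of a gene were summed (adjusted p = 0.0473), together with Ncam1. Among synaptic adhesion genes the postsynaptic Nlgn2 and the presynaptic Nrxn2 lay on opposite sides of polysomes. Nlgn2 had 183 and 149 CPM against 289 and 277 CPM (log2 fold change -0.92, SE 0.35, adjusted p = 0.161). Nrxn2 had 305 and 645 CPM against 281 and 268 CPM (log2 fold change 0.57, SE 0.26, adjusted p = 0.253), and neither of the 2 passed. In all, both RiboLace libraries lay above both polysome libraries for 15 members and below for 8, against 22.2% and 31.8% of all genes tested. These counts use CPM scaled over the 8 libraries, while the fits scaled the compared libraries alone. Cdh2 and Ephb1 thus counted as above, with fitted log2 fold changes of -0.038 and -0.0033.

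Both immunoprecipitates were also set over the polysomes of SMA brains. They are not comparisons that the series names: the immunoprecipitates came from healthy brains and the polysomes from SMA brains, so genotype and protocol cannot be told apart, and both share the polysome libraries. They show how the members were represented on pelleted and pulled-down ribosomes. Of the 34 members, 17 were called higher in SMN over polysomes and 0 lower, where 16.4% of 6484 genes were called higher and 11.1% lower, or 27.5% in either direction. Genes with long coding sequences were called more often: of all genes above 4000 bases 56.3% were called higher, against 7 of the 13 members of that length, and of those of 2000 to 4000 bases 21.7%, against 10 of 18 members. In IgG over polysomes 15 members were called higher and 2 lower, where 10.3% of 12709 genes were called higher and 9.15% lower. In the same length classes 41.2% and 16.3% of all genes were called higher in IgG, against 5 of 13 and 10 of 18 members. The IgG side is 1 library and the spread came from the 2 polysome libraries alone, so its SEs and p-values hold no spread between pull-downs and cannot be set against those of SMN. The median log2 fold change of the members was 0.65 for SMN, against -0.015 over all genes, and 0.58 for IgG, against -0.13 over all genes. Scaling the libraries to their totals and not by TMM moved the median of all genes from -0.015 to -0.31 in SMN over polysomes. Of all genes 636 were then called higher and 1578 lower, in place of 1062 and 719, and of the members 9 were called higher and 3 lower. In IgG over polysomes the same change moved that median from -0.13 to -0.32 and the calls of all genes from 1311 higher and 1163 lower to 1049 and 1824, with 15 members higher and 3 lower.

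Most adhesion molecules of the immunoglobulin class were called. In the SMN immunoprecipitate 5 of 7 were called higher and 0 lower, with a median log2 fold change of 0.97, and in IgG 5 of 7 as well, with a median of 0.90. L1cam, the founding member of the L1 family of axonal adhesion molecules, had 1180.1, 419.8 and 1062 CPM in the SMN replicates, 1220.2 CPM in IgG, 569 and 545 CPM in RiboLace, and 335 and 351 CPM in polysomes. All 6 libraries of the other protocols lay above both polysome libraries, with SMN replicate 2 nearest to them. The log2 fold change was 1.37 (SE 0.34, edgeR adjusted p = 0.00932) for SMN and 1.77 (SE 0.16) for IgG. Cntn2, a GPI-anchored contactin that binds L1 family members on early axons, had 341, 169.5 and 272 CPM in SMN, 246 CPM in IgG and 96.8 and 79.7 CPM in polysomes. Every immunoprecipitate exceeded both polysome values, and the log2 fold changes were 1.58 (SE 0.24, edgeR adjusted p = 0.000427) and 1.44 (SE 0.24).

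Ncam1, which bears polysialic acid in growing axons, had 1980.0, 1445 and 1932 CPM in SMN, 1743 CPM in IgG and 889.9 and 900.3 CPM in polysomes, without overlap (log2 fold change 0.99 for SMN, SE 0.25, edgeR adjusted p = 0.0105). Cntn1 and Nfasc, which take part in the paranodal junctions of myelinated nerve, were higher by 0.96 and 0.97 in SMN over polysomes and by 0.81 and 0.93 in IgG over polysomes, on the log2 scale. The L1 relatives Nrcam and Chl1 were not called. Nrcam had 364, 347 and 402 CPM in SMN, 323 CPM in IgG and 357 and 393 CPM in polysomes, so that the groups overlapped (log2 fold change -0.016, SE 0.24). Chl1 had 1117, 1566 and 1218 CPM in SMN and 1343 CPM in IgG, against 1112 and 1064 CPM in polysomes, with a log2 fold change of 0.24 (SE 0.24, edgeR adjusted p = 0.468). Of the L1 family, L1cam and Nfasc were therefore called and Nrcam and Chl1 were not, although the genes were not tested against each other.

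Of the 4 cadherin and synaptic adhesion genes 2 were called. Nrxn2 and Nrxn3, which span the presynaptic membrane, were called higher in both immunoprecipitates. Nrxn2 had 737, 323 and 718 CPM in SMN and 764 CPM in IgG, against 281 and 268 CPM in polysomes, without overlap (log2 fold change 1.12 for SMN, SE 0.30, edgeR adjusted p = 0.0148, and 1.42 for IgG, SE 0.17). Nrxn3 had a log2 fold change of 0.74 (SE 0.23) in SMN and 1.45 (SE 0.23) in IgG. Their partner Nlgn2, a neuroligin of inhibitory synapses, had 285, 323 and 353 CPM in SMN, 287 CPM in IgG and 289 and 277 CPM in polysomes, with overlap and no call (log2 fold change 0.18, SE 0.24). Cdh2, the classical N-cadherin, had 246, 226 and 312 CPM in SMN, 287 CPM in IgG and 361 and 354 CPM in polysomes. All 4 immunoprecipitates lay below polysomes, but neither test passed (log2 fold change -0.43, SE 0.25, and -0.37, SE 0.22). The 4 genes were not tested against each other.

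The Slits had the largest fold changes of the list in SMN over polysomes. Slit1 had 261, 226 and 303 CPM in the SMN replicates, 256 CPM in IgG, 81.4 and 149 CPM in RiboLace, from 4 and 6 reads, and 74.7 and 85.5 CPM in polysomes. The SMN values were close together and far from polysomes, and the log2 fold change of 1.74 (SE 0.21, edgeR adjusted p = 6.2e-05) was a 3.33-fold difference, with 1.61 (SE 0.24) for IgG. Slit2 had 111, 32.3 and 66.9 CPM in SMN and 92.3 CPM in IgG, from 4 to 18 reads, and 17.3 and 17.7 CPM in polysomes. It lay above both polysome libraries in every immunoprecipitate (log2 fold change 1.97 for SMN, SE 0.41, edgeR adjusted p = 0.0039, and 2.33 for IgG, SE 0.43). Sema6a, a transmembrane semaphorin, had 150.5, 48.4 and 156 CPM in SMN, 185 CPM in IgG and 67.1 and 72.8 CPM in polysomes. Its SMN replicate 2 lay below polysomes, and the SMN call was narrow (log2 fold change 0.83, SE 0.29, edgeR adjusted p = 0.0457). Sema3a, the secreted semaphorin, was called in IgG (log2 fold change 1.20, SE 0.37) and not in SMN (0.43, SE 0.41), and whether these differ was tested above without a call. Ntn1 was called in neither, at 0.38 (SE 0.30) in SMN and -0.79 (SE 0.48) in IgG.

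Receptors of Slits and netrins lay on both sides of polysomes. Of Robo1, Robo2, Dcc and Unc5a, 0 were called in the SMN immunoprecipitate, and the median log2 fold change was 0.17, with 2 positive and 2 negative. Robo1 had 143, 315 and 236 CPM in SMN, 210.2 CPM in IgG and 340.3 and 332 CPM in polysomes. Each immunoprecipitate lay below both polysome libraries, with a log2 fold change of -0.55 (SE 0.28, edgeR adjusted p = 0.149) for SMN and -0.73 (SE 0.24, adjusted p = 0.025) for IgG. The IgG call was lost with DESeq2, with all 8 libraries in 1 fit and without either polysome library. Without SMN replicate 2, whose 315 CPM lay nearest to polysomes, Robo1 was called lower in SMN too, together with Efnb3. Of all genes 1593 were then called lower, in place of 719. Robo1 was thus below both polysome libraries in all 4 immunoprecipitates and its ligands Slit1 and Slit2 above them, while in RiboLace Slit2 had only 1 read in each library. Dcc had 150.5, 96.9 and 98.2 CPM in SMN, all above the 77.4 and 85.1 CPM of polysomes, and 61.5 CPM in IgG, below them, and was called in neither. Unc5a had 39.6 to 58.01 CPM in the immunoprecipitates, from 5 to 13 reads, against 34.6 and 34.7 CPM in polysomes (log2 fold change 0.53, SE 0.34, and 0.65, SE 0.45).

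All 8 plexins and neuropilins had a positive log2 fold change in SMN over polysomes, with a median of 0.65, and 4 were called. Over all genes tested 49.3% were positive and 16.4% were called higher. Among all genes above 4000 bases, a length that each listed plexin exceeds, 88.2% were positive and 56.3% called higher, with a median of 0.92. With library totals in place of TMM the values of Plxna2, Plxna4 and Nrp1 turned negative. Plxna1, a receptor for class 3 and class 6 semaphorins, had 681, 743 and 571 CPM in SMN, 538 CPM in IgG and 380.3 and 350.4 CPM in polysomes. It did not overlap (log2 fold change 0.85, SE 0.24, edgeR adjusted p = 0.0185), and in IgG it fell just short (0.51, SE 0.19, adjusted p = 0.0536). Plxna3 and Plxnb2, a receptor of class 4 semaphorins, were higher by 0.77 and 0.81 in SMN, and Plxnb2 by 1.12 in IgG. Nrp2 was higher by 1.39 (SE 0.33, edgeR adjusted p = 0.00721) in SMN and stood at 0.35 (SE 0.42) in IgG, its low reads in IgG (13) and SMN replicate 2 (7) leaving the 2 groups unresolved. The other members of this role were near polysomes: Plxna2 had 341, 250.3 and 308 CPM in SMN against 302 and 281 CPM, and Nrp1, which binds Sema3a, had 119, 194 and 241 CPM against 196 and 180.2 CPM. Plxna4 and Plxnb1 stood at 0.21 and 0.53 on the log2 scale, short of the test.

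Of the 4 Eph receptors 3 were called higher in each pull-down, and of the 2 ephrins 0. Epha4, a receptor for both ephrin classes that stops corticospinal axons at the midline, had 246, 80.7 and 223 CPM in SMN, 236 CPM in IgG and 101 and 73.6 CPM in polysomes. Its SMN replicate 2 lay within the polysome range, and the log2 fold change was 1.15 (SE 0.30, edgeR adjusted p = 0.0117) for SMN and 1.41 (SE 0.27) for IgG. Epha5 and Ephb2 were higher by 0.93 and 1.13 in SMN and by 1.45 and 1.26 in IgG, and Ephb1 did not pass in either (0.56, SE 0.28, and 0.35, SE 0.34). The ligand Efnb3, which marks the midline of the spinal cord, had 158, 355 and 214 CPM in SMN, 215 CPM in IgG and 367 and 323 CPM in polysomes. The log2 fold change was -0.53 (SE 0.28, edgeR adjusted p = 0.169) for SMN and -0.73 (SE 0.25, adjusted p = 0.0276) for IgG, where the call was lost in the same alternatives as for Robo1. Efnb2 had 71.3, 32.3 and 80.3 CPM in SMN, 76.9 CPM in IgG and 76.8 and 70.1 CPM in polysomes, and overlapped (log2 fold change -0.17, SE 0.31). The ephrins had the shortest coding sequences on the list, 1011 bases for Efnb2 and 1023 bases for Efnb3.

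**Figure D3:**
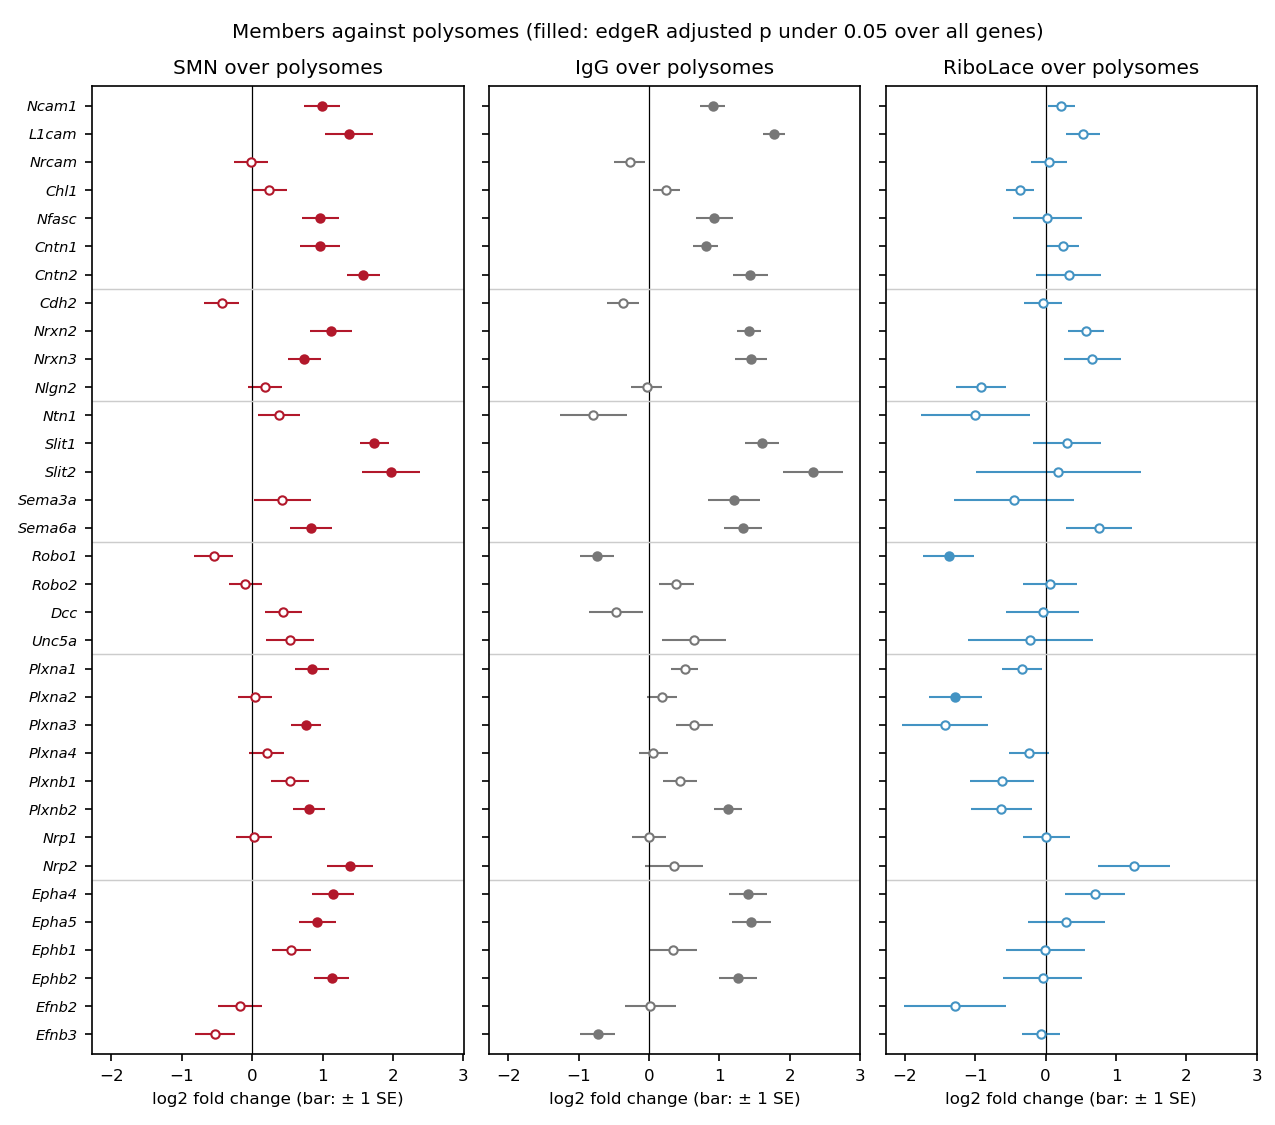
Log2 fold change of each member over polysomes in the SMN immunoprecipitate, in IgG and in RiboLace, with bars of 1 SE; filled points were called by edgeR at an adjusted p under 0.05 over all genes. The SMN and IgG panels show 17 and 15 filled points to the right of 0, Robo1 and Efnb3 lie to the left in both, and the RiboLace panel has 2 filled points, Robo1 and Plxna2.

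Single libraries decided how many genes passed in SMN over polysomes, the members among them. SMN replicate 2 was the lowest of the 3 SMN libraries for 22 of the 34 members and for 14 of the 17 called. The median log2 ratio of the members to the polysome mean was 0.92, 0.25 and 0.61 in SMN replicates 1 to 3 and 0.61 in IgG. Of all genes 1062 were called higher with every library, and 441, 1755 and 376 without SMN replicates 1, 2 and 3. Of the members 2 were called higher without SMN replicate 1 (Slit1 and Cntn2), 18 without replicate 2 and 5 without replicate 3. With either polysome library left out, 1 remained in that group, and most calls were lost, over all genes as well as among the members. The median of the members stayed between 0.61 and 0.69 in all these fits. In IgG over polysomes most calls were likewise lost, over all genes and among the members, when either polysome library was left out. There the spread came from all remaining libraries. Over the alternatives tried, Slit1 was called in 13 of 14, Cntn2 in 12 of 14 and Slit2 in 10 of 13. No overlap in either direction was seen for 18 members above and 2 below polysomes in SMN, against 24.1% and 25.8% of all genes tested, the 2 being Cdh2 and Robo1.

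The members have long coding sequences, with a median of 3449.5 bases and a range of 1011 to 6360, against a median of 1134 over all coding genes. Over all genes tested, the log2 fold change of SMN over polysomes was higher at greater coding length. The median was -0.37 for genes under 1000 bases, -0.10 for 1000 to 2000, 0.23 for 2000 to 4000 and 0.92 above 4000 bases. In IgG over polysomes the 4 medians were -0.54, -0.23, 0.23 and 0.93, and in RiboLace over polysomes they were -0.21, -0.34, -0.33 and -0.23. Set against genes of their own length, the 18 members of 2000 to 4000 bases had a median of 0.88 in SMN and 0.86 in IgG, both higher than the median of that class. The 13 members above 4000 bases had a median of 0.74 in SMN and 0.51 in IgG, both lower than the median of that class. The 3 below 2000 bases, Ntn1, Efnb2 and Efnb3, had a median of -0.17 in SMN and -0.73 in IgG. Spearman's rho between coding length and log2 fold change of SMN over polysomes was 0.161 across the 34 members and 0.423 across all 6484 genes, which share their libraries and are not independent replicates. Of all genes of 2000 to 4000 bases 62.6% had a positive value in SMN over polysomes, and of those above 4000 bases 88.2%. The part of length in their values was not tested.

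**Figure D4:**
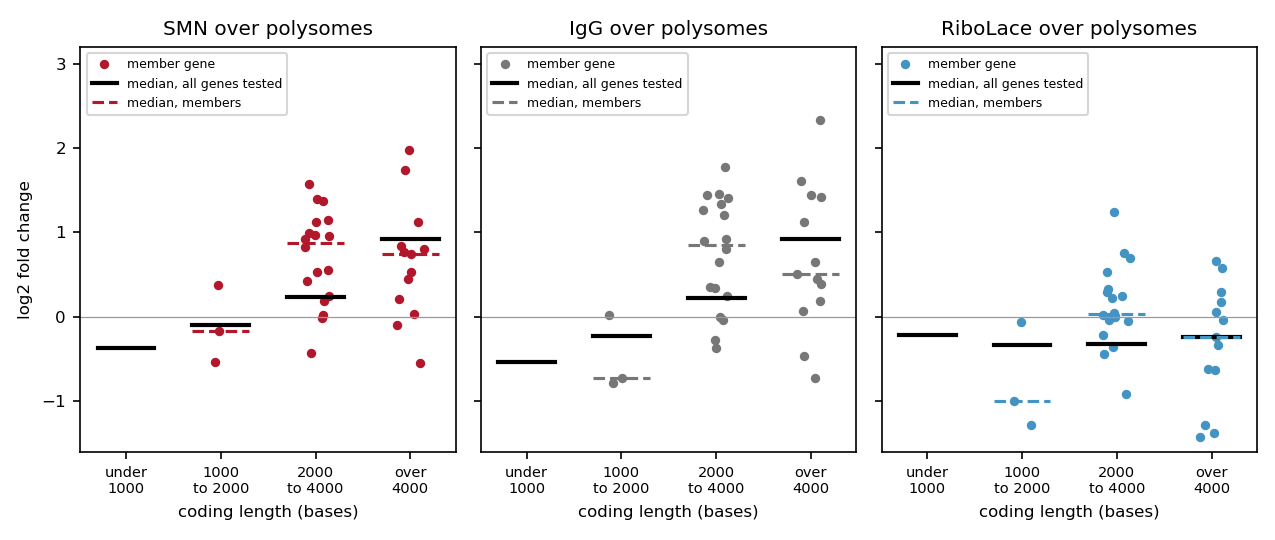
Log2 fold change over polysomes by coding length in 4 classes, for the SMN immunoprecipitate, IgG and RiboLace. Points are members, black lines are medians of all genes tested and broken lines are medians of the members; the black lines climb from -0.37 to 0.92 in SMN and from -0.54 to 0.93 in IgG and stay between -0.34 and -0.21 in RiboLace.

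The table also counts short transcript models of the same genes, which cover a part of the message, and these were examined after the values above had been seen. A model counted here had less than 0.5 of the length of the chosen transcript, lacked 1 or both UTRs, and had at least 20 reads in polysomes. A model of the start is one with a 5′ UTR and no 3′ UTR, so it can span most or all of the coding bases. Its annotated 5′ UTR need not be that of the chosen transcript. How a read that matches several models was counted is not given, so counts on models of a gene may overlap. A model's reads are given as a share of those on the chosen transcript. For L1cam, a model with 320 bases of 5′ UTR and the first 251 coding bases held 9.69% and 12.5% of the reads of the chosen transcript in polysomes. In the SMN immunoprecipitates it held 1.34%, 3.85% and 5.04%, from 2, 2 and 12 reads, and in IgG 1.26%, from 3 reads. Every immunoprecipitate lay below both polysome libraries. A model made of 570 internal coding bases held 17.4%, 15.4% and 13.9% in SMN and 14.7% in IgG, above the 12.3% and 11.7% of polysomes. A model of the end held 9.40%, 15.4% and 8.40% in SMN and 6.30% in IgG, against 8.72% and 6.48% in polysomes, with overlap. In L1cam the start thus held a smaller share of the reads in the pull-downs, and the internal stretch a larger one.

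Of 11 models of the start, from 8 members, 8 had a lower share in SMN than in polysomes and 3 a higher one, and in IgG it was 9 and 2. Models of the same gene may share reads, so these are not 11 separate observations. These are shares of few reads. The Slit1 model, with 78 bases of 5′ UTR and 1142 coding bases, held 25.4% and 26.6% of the reads of the chosen transcript in polysomes and 12.1%, 0.0% and 11.8% in SMN and 12% in IgG, from 0 to 8 reads in a pull-down. The Cntn2 model, with 152 and 308 bases, held 17.3% and 11.6% in polysomes and 2.33%, 0.0% and 4.92% in SMN and 4.17% in IgG, from 0 to 3 reads. The 3 models with a higher share in SMN were of Sema3a and Sema6a. A Sema3a model had 2064 coding bases, against 2319 in the chosen transcript. It held 71.4%, 100.0% and 77.8% in SMN, from 10, 3 and 7 reads, above the 54.9% and 61.2% of polysomes. In IgG it held 52.6%, below them. A Sema6a model had 3096 coding bases, as many as the chosen transcript. It reached 217% in SMN replicate 2, with more reads than the chosen transcript, so these shares are not parts of a whole. Over all genes with a chosen coding sequence of at least 2000 bases, 454 models of the start had a median log2 share, with 0.5 added to each count, in SMN minus polysomes of -0.41, and 320 of them (70.5%) were below 0. The median was -0.29 in IgG. The median share itself was 12.1%, 9.09% and 15.4% in the SMN libraries and 13.3% in IgG, against 19.1% and 19.9% in polysomes. For each gene the model with the most polysome reads was used, a choice that favours a high share in polysomes. Among models so chosen, those of the start of long messages took a smaller share in the 4 pull-downs than in polysomes. The part of that choice in the difference was not tested. For 181 models of the end the median share was 27.8%, 16.7% and 27.3% in SMN and 28.6% in IgG, against 18.8% and 19.2% in polysomes, so SMN replicate 2 lay below polysomes and the others above. Of 10 internal models, from 9 members, 8 had a higher share in SMN than in polysomes and 2 a lower one, and in IgG it was 9 and 1. Over all genes with a chosen coding sequence of at least 2000 bases, 221 internal models had a median log2 share over polysomes of 0.19 in SMN and 0.24 in IgG. In RiboLace the shares rest on too few reads to be read. A pair of Nlgn2 models had a long and a short leader, of 976 and 411 bases. The short one had 94.4%, 70.0% and 87.3% of the reads of the long one in SMN and 76.8% in IgG, against 63.1% and 61.5% in polysomes. In RiboLace the short one had 5 and 3 reads and the long one 9 and 6, too few for a share. Other pairs of this kind were not examined.

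**Figure D5:**
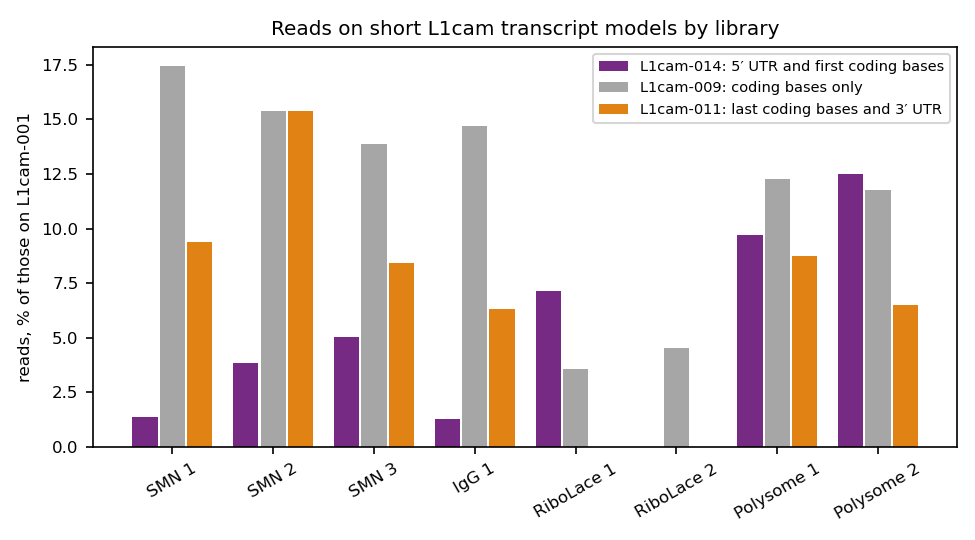
Reads on 3 short L1cam transcript models as a percentage of the reads on the chosen transcript, L1cam-001, in each library. The model of the 5′ UTR and first coding bases is at 1.26% to 5.04% in the 4 immunoprecipitates and at 9.69% and 12.5% in polysomes, and the RiboLace bars rest on 2 reads or fewer.

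Other genes of the same pathways were counted from 3 lists. Of 54 further adhesion genes, 50 were tested in SMN over polysomes, where 12 were higher and 2 lower, with a median log2 fold change of 0.32. Of all genes tested there 16.4% were higher and 11.1% lower. The teneurins Tenm1 and Tenm4 and the GPI-anchored Ntm were higher by 1.63, 1.38 and 1.42, and Thy1 and Alcam, 2 immunoglobulin-type surface proteins, lower at -1.21 and -0.75. In IgG over polysomes 20 of 54 rose and 5 fell, where 10.3% and 9.15% of all genes did. Among them were Tenm2 (1.47), Tenm3 (1.49), Thy1 (-2.66), Alcam (-1.42) and Pcdh17 (-1.02). Of 46 further ligands and receptors of guidance, 33 were tested in SMN over polysomes, where 0 rose and 3 fell (Efna5 at -1.51, Rgmb at -0.81 and Neo1 at -0.82), with a median of -0.13. In IgG 4 of 44 rose, with Sema4c at 1.43, Ntng2 at 2.00 and Epha7 at 1.10, and 4 fell, with Rgmb at -1.91, Neo1 at -1.0 and Sema5a at -1.30, both counts near the share of all genes (10.3% and 9.15%). More of the 34 members than of these other guidance genes were called above polysomes, but both lists were drawn up with earlier results of these data known. The members also include adhesion genes, and of their 4 receptors of Slits and netrins 0 were called in SMN over polysomes. Neither the difference between the lists nor the part of coding length in it was tested.

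Intracellular effectors, which carry the signal of guidance receptors to actin and microtubules, were counted in the same way. In SMN over polysomes 9 of 36 tested rose and 1 fell, where 16.4% and 11.1% of all genes did. Ank2 stood at 2.87, Ank3 at 1.75 and Mical3 at 1.61, the first 2 being ankyrins that bind L1 family proteins. The kinase Pak2 stood at -1.23. The part of coding length in these values was not tested. In IgG 20 of 45 rose and 3 fell, where 10.3% and 9.15% of all genes did. Ank2 stood at 2.90, Ank3 at 1.88, Dpysl5 at 1.61, Pak2 at -1.53, Pak1 at -1.04 and Ctnnd2 at -0.68. In RiboLace over polysomes 3 of 45 effectors rose, the actin-severing Cfl1 (1.25) and the collapsin response mediators Dpysl2 (0.76) and Dpysl3 (0.69), and 1 fell, Pak2 (-1.98). Of all genes tested in RiboLace 1.31% rose and 0.925% fell. There 0 of 54 further adhesion genes passed, with Celsr2 (-0.96, SE 0.32) and Celsr3 (-1.83, SE 0.66) having the smallest p. Of 41 further guidance genes tested in RiboLace 0 rose and 2 fell, Plxnd1 (-1.64) and Rgmb (-1.55). In SMN over IgG 0 genes of the 3 lists passed. The smallest p belonged to Cntnap1 (1.92, SE 0.68) and Thy1 (1.43, SE 0.68) among adhesion genes, to Rgmb (1.08, SE 0.65) and Slit3 (-1.01, SE 0.63) among guidance genes and to Enah (-1.27, SE 0.59) and Srgap1 (-1.06, SE 0.53) among effectors.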

How the data were processed

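The deposited table holds read counts of ribosome footprints per Ensembl transcript for 8 libraries, with coding and UTR lengths, per the file headers. Bowtie2 2.2.6, SAMtools, Trimmomatic 0.36 and the build GRCm38.p4 are named, without their roles, per the submitters' processing notes. Not given in the sources used here are how reads matching several transcripts were counted and whether reads in UTRs are included.

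Each of 21874 coding genes was represented by its coding transcript with the most reads, each library scaled to its total. Among the members 27 of 34 have several coding transcripts, and the chosen one was the longest in 25. Reads shared between transcripts or between related genes cannot be assigned, so separate values of close family members are uncertain. Counts of the compared groups alone were tested two-sided in R 4.3.3 by the robust quasi-likelihood method of edgeR 4.0.16 (TMM, filterByExpr at minimum count 10), adjusted by Benjamini-Hochberg over all genes tested, and called at an adjusted p under 0.05. The standard error is the log2 fold change over the square root of F. In IgG over polysomes the spread came from the polysome libraries, and in SMN over IgG from the SMN libraries. Alternatives were DESeq2 1.42.0, limma-voom (limma 3.58.1), library totals, other filters, all libraries in 1 fit, other transcript choices, a replicate block and each library left out. The scripts were tested on simulated counts.

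All members could be named. From each other pathway list, up to 3 called genes per direction and comparison were named by smallest p, or the 2 with the smallest p where none was called; 1 gene that this rule names is not reported here. The members and lists were chosen with earlier results of these data known. Python 3.11.15 with pandas 2.3.3, scipy 1.17.1 and matplotlib 3.10.9 was used for the other steps. A planned description of hydrophobic stretches in the proteins was not run, as no protein sequences were used here.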

Additional observations from a re-analysis of the deposited data

How the results depend on the processing

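No member called in the comparisons of the report turned its direction in the alternatives run. In SMN over IgG the count stayed at 0 higher and 0 lower in all 11 alternatives. For RiboLace over polysomes 100 of all genes were called lower. With DESeq2, limma-voom, all 8 libraries in 1 fit or transcripts summed per gene they were 6, 0, 1 and 51. The 2 lower members became 0 in each of these, and 1 (Robo1) with a minimum count of 50 or the transcript with the longest coding sequence. With a library left out the count ranged from 0 to 2. Members called higher there were 2 with a minimum count of 50 (L1cam and Nrxn2) and 2 with transcripts summed (Nrp2 and Ncam1), of which Nrxn2 and Ncam1 were slightly negative in other alternatives. For SMN over polysomes the 17 higher members became 9 with library totals, 4 with a minimum count of 50, where 19 members were tested, and 8 with transcripts summed. With an SMN library left out they ranged from 2 to 18. Most of these calls were lost without either polysome library, as were most calls over all genes. The 0 lower members became 3 with library totals, and with a library left out they ranged from 0 to 2. For IgG over polysomes most of the 15 higher members lost their call when either polysome library was left out, as did most of all genes called. The 2 lower members became 0 with DESeq2 and with all 8 libraries in 1 fit, and lost their calls without either polysome library. The median of the members moved to 0.36 in SMN over polysomes with library totals and with a minimum count of 50, and to 0.22 in RiboLace over polysomes with a minimum count of 50.

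With the replicate number as a block, 3 members were called higher in SMN over polysomes (Slit1, Slit2 and Cntn2) and 0 lower, and in RiboLace over polysomes 0 were called in either direction. Deviations of same-numbered libraries correlated at 0.0224 in RiboLace and polysomes and at 0.0031 and 0.0316 in SMN and polysomes. Counting error at this depth could hide a pairing, so these values do not decide whether the numbers pair the libraries. For the other 2 comparisons, SMN over IgG and IgG over polysomes, no paired analysis was possible because IgG has 1 library.

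Depth limits RiboLace most: a member had 0 to 55 reads in a RiboLace library, against 32 or more in a polysome library. P-values rest on 2 or 3 libraries a group, and in IgG on 1. The labels do not tie libraries of different groups to the same animals.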
